A study of Homo sapiens with 60 samples.

Results

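DNA replication and S-phase genes are described here as a module of 49 genes, out of 60675 genes in a count table of HT29 cells. They were listed by name, but with earlier results of these data known, so the list is not blind to their values. HT29 is an established human colorectal adenocarcinoma line. All 49 were found in the table and all 49 passed the filter on low counts, with means of at least 5 CPM (counts scaled to library depth). The cells were exposed for 24 h to ethanol extracts of 4 herbs and 4 herbal formulas, each at 3 doses, or to vehicle. Aucklandiae Radix was given at 370, 74 and 14.8 µg/mL and Polygalae Radix at 380, 76 and 15.2 µg/mL, with 2 libraries per dose. Menthae Herba, Saposhnikoviae Radix, Saengmaek-san and Guibi-tang were given at 500, 100 and 20 µg/mL with 3 libraries per dose. Soyo-san had 2 libraries and Okbyeongpung-san 1 library at each of those same doses. The vehicle group had 3 libraries and was dimethyl sulfoxide, written as 0.1% in the sample labels and as 2% in the series' design text. Per that design text, extracts with an IC20 under 500 µg/mL were used at that IC20 and at dilutions of it, so the high doses of different extracts are not matched in mass. Whether the libraries of a group came from separate cultures is not said in the labels, so a p-value here reflects only how far these libraries differed, which may be technical.

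Before a cell copies its genome, the origin recognition complex (ORC), CDC6 and CDT1 load the MCM2 to MCM7 ring onto origins. CDC45, the GINS complex and MCM10 then turn that ring into an active helicase, and primase, the replicative polymerases, the clamp PCNA and its loaders build the new strands. Most of these genes are transcribed around the G1/S transition under E2F factors, which the retinoblastoma family, including RBL1 (p107), holds back and cyclin E with its kinase releases. In bulk RNA, fewer cells in S phase and less of each RNA per cell cannot be told apart.

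Promoter windows from 250 bases before to 50 bases after the annotated start were taken from RefSeq on GRCh38.p14 and matched 41 of the 49 members by symbol. They were searched on both strands for E2F-type letters (TTTCCCGC, TTTGGCGC, TTTCGCGC or TTTGCCGC), for TTTGAA, the core of the cell-cycle homology region, and for CCAAT. Overlapping matches were each counted. A member with more than 1 window was given the one with the lowest genomic start coordinate, on either strand. The shares over all windows count every window, so the 2 sets were not built alike. At least 1 of the E2F-type words was present in 20 of 41 member windows (48.8%), against 1164 of all 35116 windows (3.31%). CCAAT was in 22 of 41 (53.7%, against 34.6% of all windows) and TTTGAA in 1 of 41 (2.44%, against 15.2%). A match describes letters and is not a site. The windows of 4 members that held E2F-type letters are printed below as examples of genes described later. MCM2 and MCM6 fell with both Aucklandiae Radix and Polygalae Radix, whereas CDT1 and E2F1 fell with the first and rose with the second. ORC6, MCM10 and CHAF1A also fell with the first and rose with the second, and their windows held no E2F-type letters. E2F-type letters are in capitals, and each window is written 5′ to 3′ on the gene's strand. MCM2 is at chr3:127598161-127598460 (plus strand), MCM6 at chr2:135876394-135876693 (minus strand), CDT1 at chr16:88803539-88803838 (plus strand) and E2F1 at chr20:33686336-33686635 (minus strand).
MCM2: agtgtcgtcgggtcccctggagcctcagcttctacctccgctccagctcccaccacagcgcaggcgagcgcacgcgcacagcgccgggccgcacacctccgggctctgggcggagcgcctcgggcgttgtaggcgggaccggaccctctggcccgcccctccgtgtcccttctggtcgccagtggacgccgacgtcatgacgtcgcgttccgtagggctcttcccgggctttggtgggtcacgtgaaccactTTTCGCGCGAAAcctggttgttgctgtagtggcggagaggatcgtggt
MCM6: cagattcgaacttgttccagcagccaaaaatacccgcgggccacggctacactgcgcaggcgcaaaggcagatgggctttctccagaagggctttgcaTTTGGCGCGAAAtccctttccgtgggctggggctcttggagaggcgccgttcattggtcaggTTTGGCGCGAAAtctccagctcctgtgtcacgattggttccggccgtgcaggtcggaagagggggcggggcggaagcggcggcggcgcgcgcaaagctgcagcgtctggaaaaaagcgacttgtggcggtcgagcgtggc
CDT1: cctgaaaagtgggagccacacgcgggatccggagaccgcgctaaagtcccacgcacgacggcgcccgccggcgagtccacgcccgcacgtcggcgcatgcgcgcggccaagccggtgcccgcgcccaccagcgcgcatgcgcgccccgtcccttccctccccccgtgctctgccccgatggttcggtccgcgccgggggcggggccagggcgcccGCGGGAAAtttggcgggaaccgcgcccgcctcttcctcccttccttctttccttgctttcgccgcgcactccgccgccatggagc
E2F1: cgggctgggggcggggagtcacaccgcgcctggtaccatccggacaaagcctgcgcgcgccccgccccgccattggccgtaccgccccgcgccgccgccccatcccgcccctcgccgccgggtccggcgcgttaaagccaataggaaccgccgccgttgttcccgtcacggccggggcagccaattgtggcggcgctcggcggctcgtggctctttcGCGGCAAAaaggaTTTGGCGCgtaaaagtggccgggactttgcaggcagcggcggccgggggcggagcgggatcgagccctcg
The MCM6 window held 4 matches, which form 2 stretches of overlapping words, MCM2 held 2 overlapping matches, E2F1 held 2 and CDT1 held 1. Of the members that fell with Polygalae Radix, 9 of the 16 with a window (56.2%) held E2F-type letters, and of those that rose, 3 of 7 (42.9%) did. So these letters were found in windows of genes that moved in either direction.

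In the vehicle, levels per kilobase of exon ranged over the module from 138 ± 9.69 CPM per kb for PCNA (SD, n = 3) to 1.69 ± 0.109 CPM per kb for GINS4, a GINS subunit. Next to PCNA were TK1, the thymidine salvage kinase, at 91.1 ± 3.34, and MCM7 at 87.7 ± 1.42 CPM per kb, and these neighbours overlapped (87.3 to 93.4 against 86.6 to 89.3). At the low end stood CCNE2, which encodes cyclin E2, at 2.64 to 2.74 CPM per kb, GINS3 at 3.82 ± 0.0290 and POLE2, a polymerase epsilon subunit, at 3.89 ± 0.0849 CPM per kb. All other levels below are CPM without length scaling and are compared only within a gene.

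Libraries held 17079218 to 36796397 counts. Saposhnikoviae Radix low replicate 2 was left out by the rule that defines the module's comparisons. It correlated with its closest group mate at 0.844, where each of the 56 libraries fitted reached 0.989 or more, and its mitochondrial share was 3.33%. The common dispersion was 0.00263 over the 56 libraries and 0.0269 with it in the fit, and counts that then change by more than 1.5 times are given below. Epithelial identity genes were present, with 11 of 12 intestinal epithelium markers at 1 CPM or more in the vehicle (summed level 12940 to 15430 CPM). Fibroblast markers summed to 2.17 to 3.94 CPM over 59 libraries. Of 8 hepatocyte markers only SERPINA1 reached 1 CPM, and ALB, APOA1, APOA2, TF and CYP3A4 averaged under 0.1 CPM in the vehicle. That list summed to 332 to 377 CPM in the vehicle, 281 to 291 at the Aucklandiae Radix high dose and 172 to 184 at the Polygalae Radix high dose. The strand setting of the counting is not given in the sources used here, and 18 members, MCM2, MCM7, LIG1 and RRM1 among them, have an exon that overlaps a gene on the opposite strand and 8 one on the same strand. Reads in those stretches cannot be told apart.

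The high dose of Aucklandiae Radix lowered nearly the whole module. Against its own low dose, 46 of 49 members fell, 1 rose and 2 did not pass the test (edgeR quasi-likelihood test, called at Benjamini-Hochberg adjusted p under 0.05). Of all 16978 genes tested, 58.7% were called in that comparison, 29.2% lower and 29.6% higher. The members' median log2 change was -0.83, against -0.02 over all genes, with a range from -1.82 for CCNE2 to 0.30 for CCNE1, the cyclin E1 gene. The members' summed level was 2484 and 2512 CPM in the high-dose libraries, against 4720 and 4774 at low dose and 4562 to 4643 in the vehicle. Both high-dose libraries stood far from the 57 others in the plot of module medians.

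**Figure D1:**
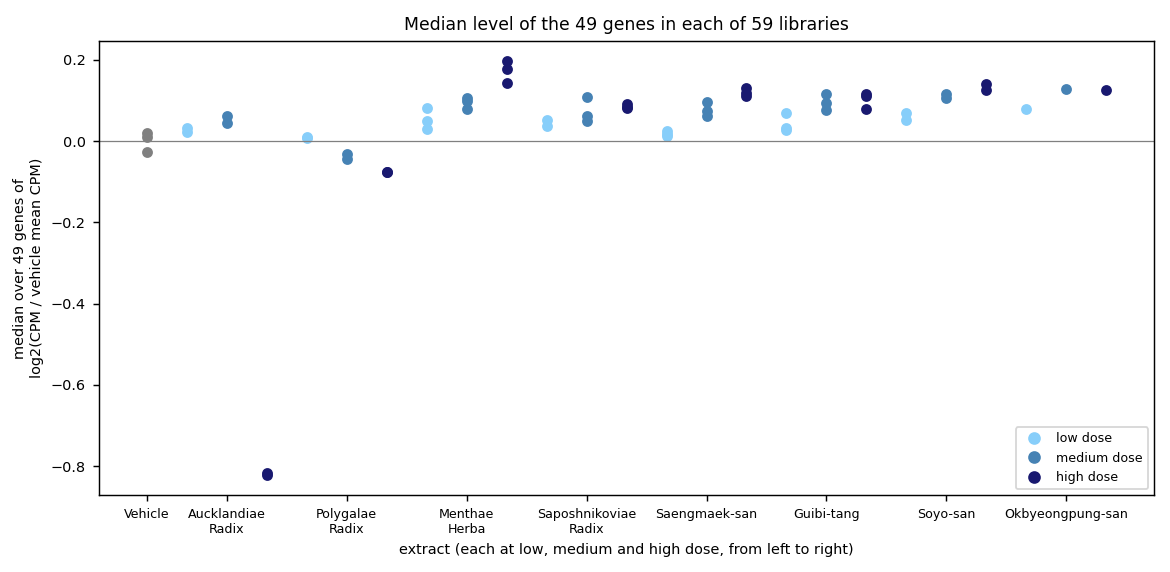
Median over the 49 genes of log2(CPM / vehicle mean CPM) on the y axis, 1 point per library, for the vehicle and 8 extracts (x axis) at low, medium and high dose from left to right, without the library left out. The Aucklandiae Radix high-dose points lie at -0.82, and every other point lies between -0.08 and 0.20.

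Among the origin licensing genes and the MCM ring, 9 of 10 fell (median log2 change -0.85), and all 6 ring subunits were among them (median -1.06). MCM7 (ENSG00000166508) fell most: it read 407 and 420 CPM at low dose, 392 and 397 at medium dose and 159 and 160 at high dose, with 380 to 392 in the vehicle. The high dose alone stood apart, 2.60-fold below the low dose (log2 -1.38 ± 0.050 SE, adjusted p = 2.62e-26). The weakest fall in the ring was that of MCM3, at log2 -0.63. CDC6, which helps load the ring, was the exception in this role. Its levels were 90.4 and 88.2 CPM at low dose, 96.4 and 97.8 at medium dose and 87.0 and 84.6 at high dose, and the change of -0.06 ± 0.047 did not pass (adjusted p = 0.300). The remaining licensing factors CDT1, ORC1 and ORC6 fell by 0.86, 0.84 and 0.50 on the log2 scale.

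All 6 helicase activation genes fell (median -0.79). GINS2 fell furthest in this role, from 40.1 and 40.0 CPM at low dose and 36.3 and 37.0 at medium dose to 17.1 and 14.2 at high dose, against 35.8 to 45.7 in the vehicle (log2 -1.35 ± 0.081, adjusted p = 1.50e-18). MCM10, which helps the helicase start, fell least. It read 40.2 and 42.3 CPM at low dose, 44.4 and 45.7 at medium and 33.4 and 33.7 at high dose (log2 -0.30 ± 0.062, adjusted p = 5.52e-05), and its high-dose libraries lay below the vehicle's 37.7 to 39.7.

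All 8 primase and polymerase genes fell (median -0.84). POLE, the catalytic subunit of the leading-strand polymerase epsilon, read 165 and 169 CPM at low dose, 170 and 166 at medium dose and 72.6 and 78.5 at high dose (log2 -1.14 ± 0.073, adjusted p = 8.70e-18). The vehicle's 138 to 166 lay clear above the high dose. PRIM2, the large primase subunit, moved least, from 21.3 and 19.5 CPM at low and 20.6 and 21.6 at medium dose to 15.6 and 16.6 at high dose (log2 -0.34 ± 0.081, adjusted p = 0.000344). Its call was lost with the outlying library in the fit.

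The clamp and its loaders all fell, 6 of 6 (median -0.54), with PCNA furthest. PCNA read 198 and 204 CPM at low dose, 211 and 217 at medium dose and 115 and 110 at high dose, where the vehicle had 187 to 213 (log2 -0.83 ± 0.055, adjusted p = 2.84e-17). The loader subunit RFC5 fell from 38.7 and 39.6 CPM to 33.3 and 33.1 (log2 -0.24 ± 0.059, adjusted p = 0.000555), and read 43.8 and 45.9 at medium dose. Of the single-strand binding trimer, RPA1 fell from 123 and 120 to 81.3 and 88.6 CPM (log2 -0.52 ± 0.052, adjusted p = 1.00e-11) and RPA2 by 0.24 on the log2 scale. RPA3, the smallest subunit, read 19.7 in both low-dose libraries and 17.9 and 16.1 at high dose. That change of -0.21 ± 0.12 did not pass (adjusted p = 0.117). The calls of RFC5 and RPA1 were lost with the outlying library in the fit.

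On the lagging strand, DNA ligase LIG1 fell from 110 and 111 to 45.0 and 45.9 CPM, with 111 to 116 in the vehicle (log2 -1.28 ± 0.061, adjusted p = 6.30e-22). The flap nuclease FEN1 fell from 160 and 159 to 84.8 and 87.6 CPM (log2 -0.89 ± 0.056, adjusted p = 5.26e-18). Neither passed at medium dose, with LIG1 at 104 and 107 and FEN1 at 154 and 159 CPM.

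Nucleotide supply fell in all 5 genes (median -1.298). RRM2 (ENSG00000171848), the S-phase subunit of ribonucleotide reductase, read 299 and 294 CPM at low dose and 317 and 330 at medium dose, then 107 and 108 at high dose (log2 -1.47 ± 0.041, adjusted p = 2.82e-30). Its vehicle libraries read 285 to 292. Its partner RRM1 fell by 1.34 and thymidylate synthase TYMS fell by 1.298 on the log2 scale. TK1 fell least in this role, from 153 and 168 to 95.7 and 88.9 CPM (log2 -0.80 ± 0.059, adjusted p = 9.82e-16).

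The 5 genes of chromatin assembly and methylation upkeep had the lowest median of the 9 roles, at -1.39. CDCA7 (ENSG00000144354), partner of the HELLS remodeller, read 110 and 102 CPM at low dose, 84.9 and 87.1 at medium dose and 38.4 and 35.8 at high dose, with 98.1 to 106 in the vehicle. It was the 1 member already lower at medium dose. The high-dose change was -1.51 ± 0.052 (adjusted p = 5.42e-27). CHAF1B, a subunit of the histone chaperone CAF-1, fell by 1.48 and HELLS by 1.39, while the other chaperone subunit, CHAF1A, fell from 56.2 and 55.7 to 32.2 and 34.0 CPM (log2 -0.76 ± 0.089, adjusted p = 6.78e-10).

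The G1/S control genes held both ends of the range. CCNE2 (ENSG00000175305) read 14.4 and 15.2 CPM at low dose, 13.2 and 15.1 at medium dose and 3.47 and 4.99 at high dose, against 11.6 to 12.0 in the vehicle (3.54-fold lower than low dose, log2 -1.82 ± 0.12, adjusted p = 1.76e-17). CCNE1 (ENSG00000105173) went the other way. Its low dose read 20.9 and 21.3, its medium dose 23.1 and 23.7 and its high dose 26.1 and 25.9 CPM (log2 0.30 ± 0.074, adjusted p = 0.000554), so the high dose lay above the vehicle's 21.04 to 24.2. RBL1 fell by 0.93 and E2F1 by 0.41 on the log2 scale.

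**Figure D2:**
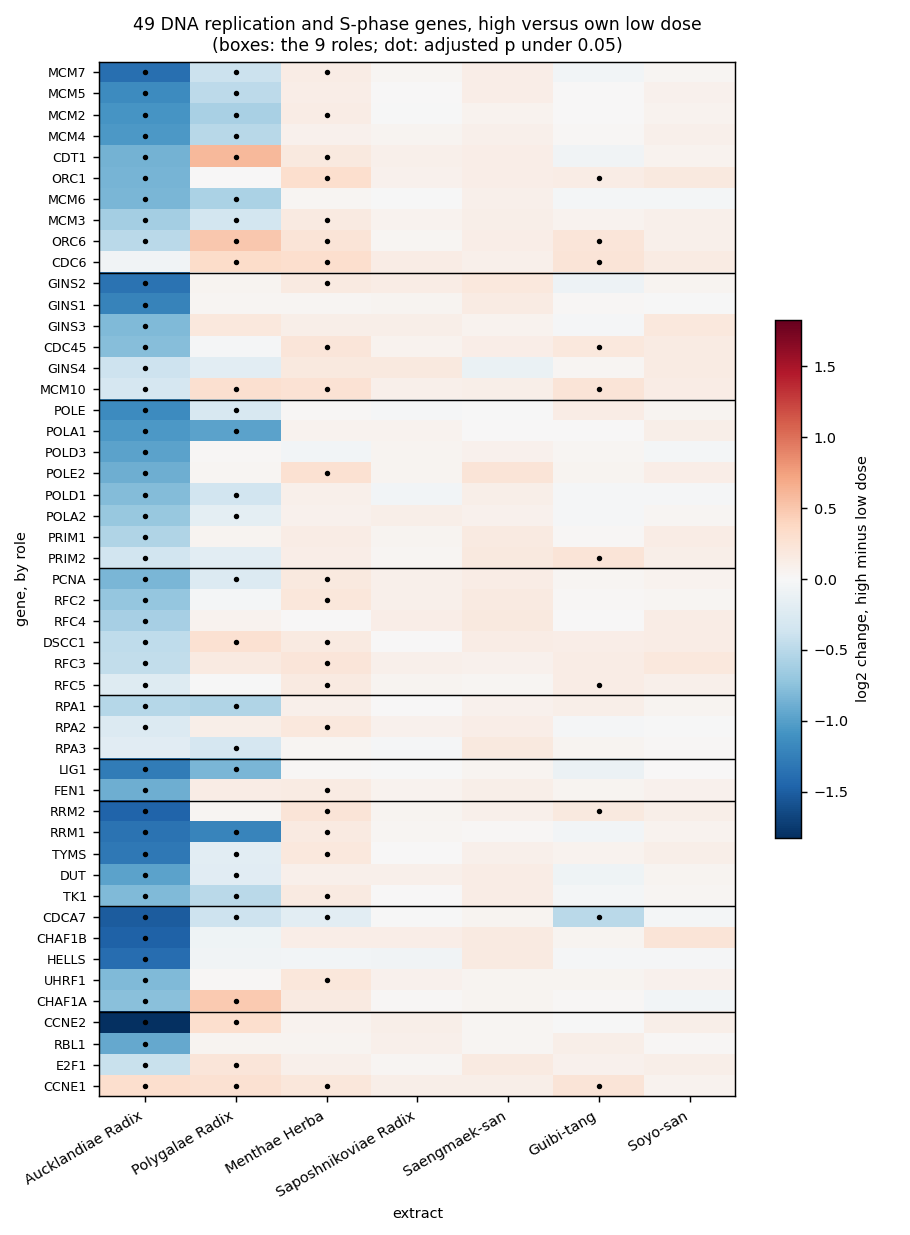
Log2 change from low to high dose (colour) for each of the 49 genes (rows, boxed by the 9 roles and ordered by the Aucklandiae Radix change) in 7 extracts (columns), with a dot where the adjusted p is under 0.05. The Aucklandiae Radix column holds 46 falls and 1 rise, the Polygalae Radix column holds 19 falls and 9 rises, and the Menthae Herba column holds 24 rises and 1 fall.

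At medium dose, Aucklandiae Radix differed from low dose in 1 member, CDCA7, which fell by 0.30 on the log2 scale (adjusted p = 4.93e-05), where 2.6% of all genes were called. Against the vehicle, its high dose lowered 47 members and raised 1, CCNE1 (62% of all genes called, 31% lower and 31% higher, median -0.85 over the members), and CDC6 again did not pass (log2 0.06, adjusted p = 0.204). Leaving out any 1 library of the high or low dose left 1 library in that group. The log2 change of high against low dose then ran from -2.08 to -1.56 for CCNE2 and from 0.295 to 0.323 for CCNE1. The count of calls at high against low dose was 42 with the outlying library in the fit. With that outlying library, 6174 of all genes were called. The high-dose libraries also had the 2 lowest mitochondrial shares of the 59, 6.19% and 6.52%, against up to 12.3% in the vehicle. Their blood cell markers summed to 46.9 and 49.7 CPM, against 9.62 to 13.2 in the vehicle, with 2 of 8 at 1 CPM or more and PTPRC, CD3E, HBB and MS4A1 under 0.1 CPM. The part of the mitochondrial share in the result was not tested.

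Polygalae Radix divided the module. Its library names begin with the same number as those of Aucklandiae Radix, and its replicate numbers are the same. Of the 49 members, 19 fell, 9 rose and 21 did not pass at high against low dose, where 29.4% of all genes were called (16% lower and 13.3% higher). The median change was -0.02, against -0.01 over all genes. The falls were all 6 MCM ring genes, 4 of 5 nucleotide supply genes, 4 of 8 primase and polymerase genes, PCNA, RPA1, RPA3, LIG1 and CDCA7. The rises were 3 of the 4 licensing genes outside the ring, 3 of 4 G1/S genes, MCM10, DSCC1 and CHAF1A.

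All 6 MCM ring subunits fell (median -0.49), from -0.60 for MCM2 to -0.34 for MCM3. MCM2 read 231 and 232 CPM at low dose, 243 and 225 at medium dose and 164 and 142 at high dose, with 224 to 236 in the vehicle. Its high-dose libraries differed from each other more than those of the low dose did, and both lay below every vehicle, low-dose and medium-dose library of that extract. Of the other 4 genes in that role 3 rose. CDT1 (ENSG00000167513) had the largest rise in the module, from 55.5 and 52.1 CPM at low dose, through 69.2 and 58.2 at medium dose, to 87.8 and 74.4 at high dose (log2 0.59 ± 0.081, adjusted p = 1.53e-07). The vehicle read 59.9 to 64.0. ORC6, a subunit of the origin recognition complex, rose from 36.1 and 34.6 to 50.2 and 49.1 CPM (log2 0.49 ± 0.058, adjusted p = 5.39e-09), and CDC6 rose by 0.33 (adjusted p = 2.50e-07). ORC1 stayed at log2 0.00 and did not pass (adjusted p = 0.974).

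The largest fall belonged to RRM1 (ENSG00000167325), the large subunit of ribonucleotide reductase. It read 255 and 254 CPM at low dose, 197 and 209 at medium dose and 110 and 111 at high dose, against 245 to 255 in the vehicle (2.30-fold lower, log2 -1.20 ± 0.040, adjusted p = 3.95e-26). RRM1 was already lower at medium dose, by 0.33 on the log2 scale (adjusted p = 1.25e-07). Its small partner RRM2 did not follow. RRM2 read 291 and 298 CPM at low dose and 293 and 309 at high dose (log2 0.03 ± 0.040, adjusted p = 0.609). The remaining nucleotide genes TK1, DUT and TYMS fell by 0.49, 0.21 and 0.19.

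Polymerase alpha's catalytic subunit POLA1 fell from 48.3 and 43.1 to 21.7 and 24.5 CPM, with 36.8 and 38.7 at medium dose and 36.8 to 43.1 in the vehicle (log2 -0.98 ± 0.079, adjusted p = 1.26e-13). LIG1 fell from 108 and 107 to 65.7 and 55.3 CPM (log2 -0.83 ± 0.061, adjusted p = 7.90e-15). The medium-dose libraries of LIG1, at 110 and 97.0, lay on either side of the low dose. POLD1, POLE and POLA2 fell by 0.35, 0.29 and 0.17, and 4 of the 8 primase and polymerase genes did not pass. In the helicase activation role only MCM10 passed, rising by 0.30, and among the clamp genes PCNA fell by 0.24 while DSCC1, a subunit of an alternative clamp loader, rose by 0.28. RPA1 fell by 0.54 and RPA3 by 0.31.

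CHAF1A rose from 54.6 and 46.7 CPM at low dose to 65.6 and 59.8 at medium dose and 75.3 and 65.0 at high dose (log2 0.47 ± 0.086, adjusted p = 2.98e-05). The vehicle, at 54.6 to 67.0, overlapped the lower of those high-dose libraries. In the same role CDCA7 fell by 0.38, and CHAF1B, HELLS and UHRF1 did not pass, at -0.08, -0.06 and 0.02. Of the G1/S genes, CCNE2 rose from 14.3 and 14.5 to 17.2 and 18.4 CPM (log2 0.31 ± 0.099, adjusted p = 0.0146). CCNE1 rose by 0.28 and E2F1 by 0.23 on the log2 scale, and RBL1 did not pass at 0.04.

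**Figure D3:**
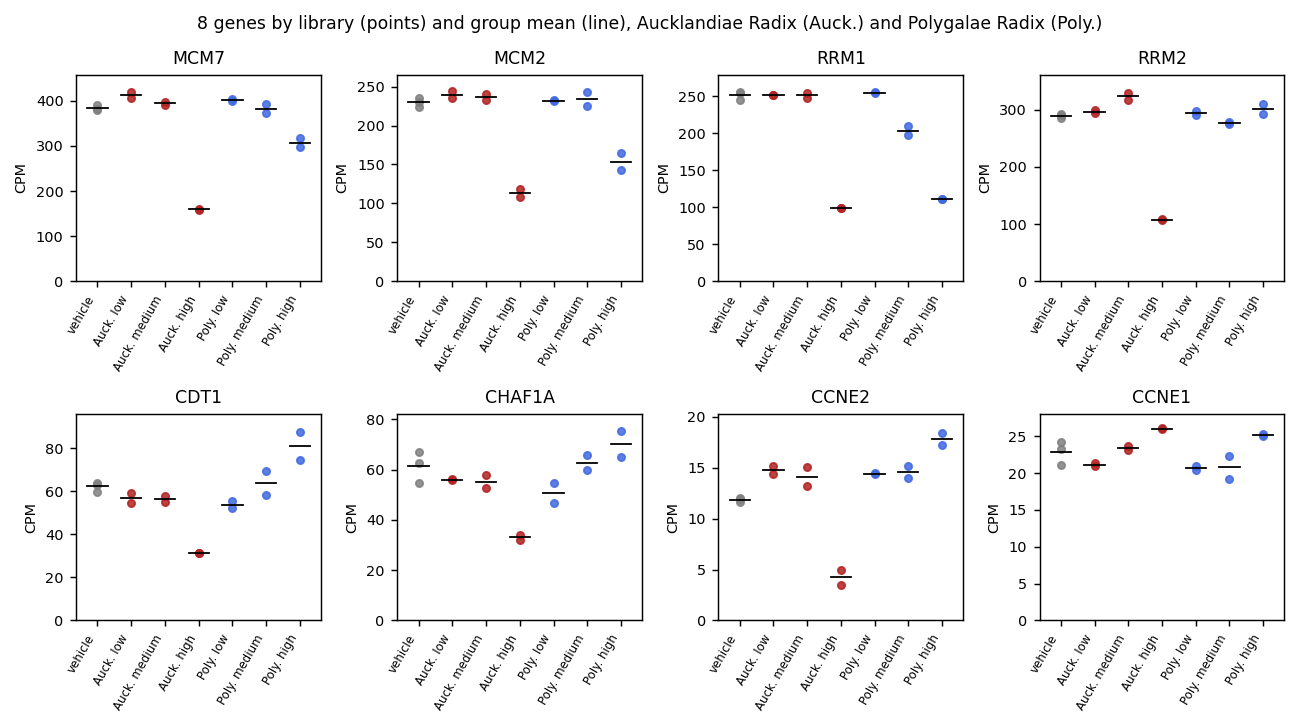
Levels in CPM (y axis, from 0) of 8 genes in each vehicle, Aucklandiae Radix and Polygalae Radix library (points), with the group mean as a line. MCM7, MCM2 and RRM1 are low at both high doses, RRM2 at the Aucklandiae Radix high dose alone, and CDT1, CHAF1A and CCNE2 are low at the Aucklandiae Radix high dose and high at the Polygalae Radix high dose.

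Medium-dose Polygalae Radix differed from low dose in 3 members: RRM1, POLA1 (-0.28) and CHAF1A (0.31), where 4.95% of all genes were called. Its high dose differed from the vehicle in 32 members, 21 lower and 11 higher (36.5% of all genes called, 19.6% lower and 16.8% higher). Leaving out any 1 library of the high or low dose left 1 library in that group. The log2 change of high against low dose then ran from -1.203 to -1.192 for RRM1 and from 0.462 to 0.716 for CDT1. The outlying library in the fit gave 10 calls at high against low dose, with CDT1 and CHAF1A among the lost calls. With that outlying library, 1459 of all genes were called. Intestinal epithelium markers summed to 7730 to 8609 CPM at high dose, below the vehicle's 12940 to 15430, with 11 of 12 at 1 CPM or more. Most of that sum is KRT8 and KRT18, with mean counts over all libraries of 160411 and 100742, against 12593 for EPCAM, the next marker. The hepatocyte list, nearly all of it SERPINA1, was lower there too, as given above. The part of either list in the result was not tested.

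Both herbs were then set against each other gene by gene, since their dose comparisons share no library. Of the members, 18 fell in both, among them the whole MCM ring, PCNA, POLA1, LIG1 and RRM1. They were 39.1% of the 46 that fell with Aucklandiae Radix and 94.7% of the 19 that fell with Polygalae Radix. Over all genes tested, 1304 fell in both, 26.3% and 47.9% of those that fell with each. A further 21 members fell with Aucklandiae Radix and did not pass with Polygalae Radix (45.7% of the 46, against 65% over all genes). The 7 that fell with the first and rose with the second were ORC6, CDT1, MCM10, DSCC1, CHAF1A, CCNE2 and E2F1 (15.2% of the 46, against 8.64% over all genes). CCNE1 rose in both. Across the 49 genes, which are not independent replicates, Pearson's r of the log2 changes was 0.335 and Spearman's rho 0.352. The difference between the dose effects passed in 43 members, all lower with Aucklandiae Radix (median difference -0.68 on the log2 scale), where 46.6% of all genes passed and 22.6% were lower. The largest differences were -2.13 ± 0.15 for CCNE2 (adjusted p = 1.85e-15), -1.50 ± 0.057 for RRM2 (adjusted p = 6.84e-25) and -1.45 ± 0.12 for CDT1 (adjusted p = 4.94e-14).

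**Figure D4:**
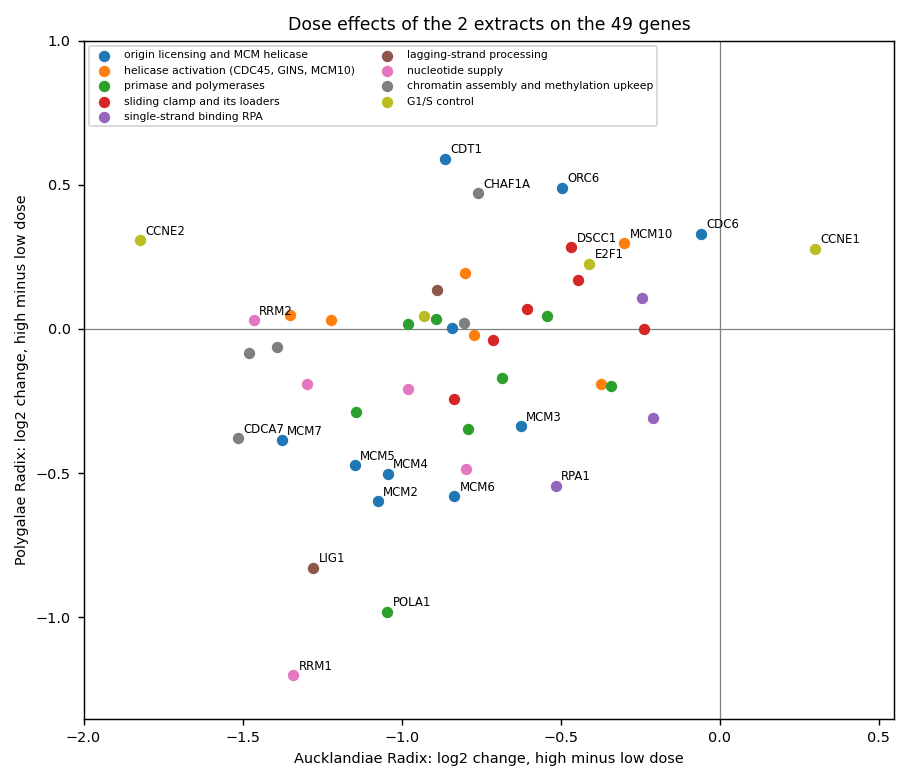
Log2 change from low to high dose of the 49 genes with Aucklandiae Radix (x axis) and Polygalae Radix (y axis), coloured by role. The 6 MCM ring genes lie low on both axes, CCNE2, CDT1, CHAF1A and ORC6 lie left of 0 and above 0, and CCNE1 is the 1 called gene that lies right of and above 0.

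Against each of the 5 other extracts with replicates, the Aucklandiae Radix dose effect was lower in 47 of 49 members. The share of all genes that passed was 47.4% against Menthae Herba (23.4% lower), 47.7% against Saposhnikoviae Radix (23.9% lower), 49.3% against Saengmaek-san (24.8% lower), 45.1% against Guibi-tang (21.9% lower) and 46.3% against Soyo-san (22.8% lower). These differences share the Aucklandiae Radix libraries.

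Menthae Herba raised part of the module by small amounts. At high against low dose, 24 members rose and 1 fell, and 24 missed the threshold. The median change was 0.14 against -0.01 over all genes, where 23.5% of all genes were called (12% higher and 11.6% lower). In the licensing role 7 of 10 rose, in the clamp role 5 of 6 and in nucleotide supply 4 of 5, but 1 of 8 primase and polymerase genes. CDC6 rose most, from 90.2, 83.3 and 89.1 CPM at low dose and 93.7, 89.0 and 89.5 at medium dose to 110, 108 and 108 at high dose (1.24-fold, log2 0.31 ± 0.038, adjusted p = 1.79e-08). ORC1 rose from 37.9, 37.1 and 38.0 to 48.3, 44.9 and 46.3 CPM (log2 0.30 ± 0.047, adjusted p = 3.18e-06). POLE2 rose from 11.5, 10.8 and 11.8 to 13.8, 14.3 and 13.2 CPM (log2 0.27 ± 0.069, adjusted p = 0.00251). For all 3 genes the high-dose libraries lay above every low-dose library. CDCA7 was the 1 fall, from 107, 110 and 109 to 95.7, 96.6 and 91.9 CPM (log2 -0.20 ± 0.040, adjusted p = 0.000191).

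RRM1, the gene that fell most with Polygalae Radix, rose by 0.16 with Menthae Herba (adjusted p = 0.000150), as did MCM2, MCM3, MCM7, PCNA, TYMS and TK1, all 7 of which fell with Polygalae Radix. The share of all genes that fell with Polygalae Radix and rose with Menthae Herba is not given here, so these 7 have no background. By edgeR, 8 members had an unadjusted p under 0.05 at medium against low dose, with no share of all genes given at that threshold. Medium-dose Menthae Herba differed from low dose in 0 members by adjusted p, where 0.0294% of all genes were called. Its high dose raised 27 members against the vehicle and lowered none (28.2% of all genes called, 13.7% higher and 14.5% lower). With the outlying library in the fit, 2 members passed at high against low dose and 5 against the vehicle, and the calls of CDC6, ORC1, POLE2 and CDCA7 were lost. Of all genes, 899 and 1012 were called in those comparisons.

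Guibi-tang moved fewer members. At high against low dose 9 rose and 1 fell, with a median of 0.03. That is 20.4% of the members, near the 17.9% of all genes called (8.84% higher and 9.08% lower). MCM10 rose from 41.0, 41.2 and 39.0 CPM at low dose and 41.5, 43.5 and 44.4 at medium dose to 48.3, 48.8 and 46.0 at high dose (log2 0.24 ± 0.050, adjusted p = 0.000363). CDC6 rose from 88.5, 90.03 and 88.4 to 103, 105 and 106 CPM (log2 0.23 ± 0.038, adjusted p = 7.13e-06). CCNE1 rose from 21.2, 21.8 and 22.9 to 24.0, 26.8 and 26.1 CPM (log2 0.23 ± 0.061, adjusted p = 0.00556). The other 6 rises were ORC1, ORC6, CDC45, RRM2, RFC5 and PRIM2, from 0.13 to 0.23 on the log2 scale. CDCA7 fell from 106, 109 and 109 CPM at low dose and 99.9, 102 and 104 at medium dose to 76.3, 76.3 and 78.4 at high dose (log2 -0.49 ± 0.041, adjusted p = 7.97e-13). The high-dose libraries of CDCA7 were thus clear of all others, and the gene fell at high dose in 4 extracts, Aucklandiae Radix, Polygalae Radix, Menthae Herba and Guibi-tang. CCNE1 rose in those same 4. The share of all genes called in the same direction in all 4 is not given here. Against the vehicle, high-dose Guibi-tang raised 18 members and lowered 2, CDCA7 and POLA2 (29.4% of all genes called, 14.7% higher and 14.7% lower). With the outlying library in the fit, 2 members passed at high against low dose and 4 against the vehicle, and the calls of all 4 genes given here with their library values were lost. Of all genes, 797 and 1079 were called in those comparisons.

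No member was called at high against low dose with Saposhnikoviae Radix, Saengmaek-san or Soyo-san by edgeR, where 0.289%, 0.854% and 2.49% of all genes were called. At an unadjusted p under 0.05 the counts were 2, 29 and 9 members, all higher at high dose. No share of all genes at that unadjusted threshold is given here, so these counts have no background to be judged by. By adjusted p, DESeq2 called 0, 1 and 0 members, and 59, 207 and 407 of all genes. The members' medians were 0.05, 0.11 and 0.07. For Saengmaek-san the smallest adjusted p was that of E2F1 (log2 0.16 ± 0.045, adjusted p = 0.0688), and for Soyo-san that of CDC45 (log2 0.15 ± 0.049, adjusted p = 0.0943). CDC6 shows the size of these values: with Saengmaek-san it read 86.7, 89.7 and 83.1 CPM at low dose and 95.7, 91.8 and 89.9 at high dose, so the groups did not overlap but lay close. With the outlying library in its low-dose group, Saposhnikoviae Radix gave 18 calls in place of 0, and 4706 of all genes were called. Medium-dose libraries of these 3 extracts and of Guibi-tang differed from low dose in 0 members by edgeR, where 0% of all genes were called for Saposhnikoviae Radix, Saengmaek-san and Soyo-san and 0.118% for Guibi-tang. The unadjusted counts were 5, 7, 1 and 7, for Saposhnikoviae Radix, Saengmaek-san, Soyo-san and Guibi-tang, again with no share of all genes beside them.

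Comparisons with the vehicle share its 3 libraries, whose names carry a prefix that no extract library has. The effect of an extract and of anything tied to that prefix cannot be told apart there. High-dose Saposhnikoviae Radix raised 13 members (10.2% of all genes called, 5.18% higher), Saengmaek-san 22 (12%, 5.79% higher) and Soyo-san 21 (17.7%, 8.44% higher), and none fell. Low doses gave 3 calls with Aucklandiae Radix (4.97% of all genes), 4 with Polygalae Radix (9.98%), 7 with Menthae Herba (9.45%), 7 with Saposhnikoviae Radix (11.5%), 7 with Saengmaek-san (18%), 7 with Guibi-tang (6.05%) and 7 with Soyo-san (9.8%). These 42 calls became 10 without vehicle replicate 3, which left 1 to 3 per extract, and 23 with the outlying library in the fit. Over all genes, the fit with that library called 4773 for Saposhnikoviae Radix, whose low-dose group holds it. It called 1 to 83 for each other extract, so the 23 do not describe the 7 extracts evenly. Aucklandiae Radix and Polygalae Radix each had 0 without their own low replicate 3. Medium doses gave 11 calls with Aucklandiae Radix (13.6%), 9 with Polygalae Radix (10.2%), 16 with Menthae Herba (10.1%), 11 with Saposhnikoviae Radix (3.69%), 10 with Saengmaek-san (11.4%), 14 with Guibi-tang (11%) and 13 with Soyo-san (8.55%). Those 84 calls became 53 without vehicle replicate 3. Leaving out 1 treated library took single counts further: Soyo-san had 2 calls without its medium replicate 1, Polygalae Radix 2 and Aucklandiae Radix 4 without their medium replicate 3, and Menthae Herba 8 without its medium replicate 1.

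RBL1 and RFC3, a clamp loader subunit, were higher than the vehicle at low dose with each of the 7 extracts. RBL1 read 31.1, 35.8 and 36.1 CPM in the vehicle and from 42.9 to 48.4 CPM (median 45.3) over the 17 low-dose libraries fitted, so the groups did not overlap (log2 0.37 to 0.44, adjusted p 2.13e-05 to 0.00225). RFC3 read 65.7, 74.9 and 59.2 CPM in the vehicle and from 73.2 to 83.0 CPM (median 78.1) at low dose, and 1 vehicle library lay within that range (log2 0.20 to 0.26, adjusted p 0.00227 to 0.0377). RBL1 passed with all 7 extracts when any 1 vehicle library was left out, and with 5 when the outlying library was in the fit. Its call was lost for Aucklandiae Radix and for Polygalae Radix without their own low replicate 3. RFC3 passed with none of the 7 without vehicle replicate 3 or with the outlying library in the fit, and with 5 without vehicle replicate 1. Leaving out either low-dose library also ended the RFC3 call for Aucklandiae Radix, Polygalae Radix, Saposhnikoviae Radix and Soyo-san.

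Beyond the module, 72 further genes of replication and G1/S control were followed as 5 lists. With high-dose Aucklandiae Radix against low dose, 53 fell and 7 rose (median -0.55), which is 83.3% called against 58.7% of all genes: 11 fell and 1 rose of 16 licensing and firing factors, 4 and 2 of 8 polymerase and loader subunits, 16 and 0 of 18 fork protection and checkpoint genes, 10 and 1 of 12 nucleotide and chromatin genes, and 12 and 3 of 18 G1/S genes. The largest falls were those of E2F8 (-1.90), a repressive E2F, SKP2 (-1.87), the ubiquitin ligase subunit that targets p27, and E2F2 (-1.81). CDKN1A, which encodes the cyclin-dependent kinase inhibitor p21, rose most. It read 9.43 and 10.3 CPM at low dose, 13.5 and 13.3 at medium dose and 105 and 99.5 at high dose (10.3-fold, log2 3.37 ± 0.089, adjusted p = 4.38e-31). POLD4, a small polymerase delta subunit, rose from 28.7 and 28.97 to 146 and 133 CPM (log2 2.27 ± 0.088, adjusted p = 2.65e-25). CDKN2B, which encodes p15, rose by 1.90, while the inhibitor genes CDKN1B and CDKN1C fell by 0.82 and 1.51 on the log2 scale. The kinase CDC7, which fires origins, fell by 1.28 and its partner DBF4 by 0.26. So POLD4 went against all 8 polymerase genes of the module.

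With Polygalae Radix the same 72 genes gave 15 rises and 15 falls (median -0.01), 41.7% called against 29.4% of all genes. CDKN1A rose by 0.92 ± 0.098 (adjusted p = 3.15e-10), from 10.3 and 11.4 to 20.9 and 20.1 CPM, and CDKN2B rose by 0.51. E2F8, SKP2, E2F2, POLD4 and CDC7 did not pass there. Menthae Herba gave 19 rises and 2 falls (29.2% called), where 23.5% of all genes were called, 12% higher and 11.6% lower. Guibi-tang gave 11 rises and 5 falls (22.2% called), where 17.9% of all genes were called, 8.84% higher and 9.08% lower. Both shares called in either direction lay near those over all genes. The Menthae Herba calls were mostly rises, whereas those over all genes were nearly even. CDKN1A rose by 0.34 with Guibi-tang and did not pass with Menthae Herba (0.03). CDKN1C fell in all 4 extracts, by 0.78 to 1.51, again with no share of all genes beside it.

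A list of 30 mitosis and spindle genes was set beside the module. With Aucklandiae Radix all 30 fell (29.2% of all genes fell), with a median of -0.92 against -0.83 for the module. With Polygalae Radix 20 of the 30 fell and none rose (16% of all genes fell), with a median of -0.36 against -0.02 for the module. With Menthae Herba 14 of 30 rose (12% of all genes rose), and with Guibi-tang none was called. A difference between the lists was not tested.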

How the data were processed

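The members and the lists were chosen with earlier results of these data known. The authors deposited expected counts. The submitters' processing notes name RSEM 1.3.3, STAR 2.7.3a, Trim Galore 0.6.5 and FastQC 0.11.9. Of the values 10.0% were not whole (no tolerance), and all were rounded. Ensembl identifiers were matched to symbols, 56558 of 60675. Okbyeongpung-san, with 1 library per dose, was not tested. The other 56 libraries in 22 groups entered 1 edgeR 4.0.16 fit (R 4.3.3): TMM factors, filterByExpr by group (16978 genes kept), a coefficient for every group and two-sided quasi-likelihood F-tests on 34 residual degrees of freedom, with Benjamini-Hochberg adjustment over all genes tested. The standard error is the log2 change divided by the square root of F. CPM uses TMM-scaled totals. Scripts were tested on simulated data. Alternatives were DESeq2 1.42.0, its size factors in edgeR, no low-count filter, all 57 libraries, each library left out and a replicate block. Genes given by library were, in each of 9 roles, the lowest and highest change with Aucklandiae Radix, plus up to 3 largest rises and falls in each other extract. Some were given by library outside that rule, after their values were seen. They were RRM2, MCM2 and CCNE2 with Polygalae Radix, RRM1 with Aucklandiae Radix, RBL1 and RFC3 at low doses and CDC6 with Saengmaek-san. Exon lengths come from GENCODE 29 on GRCh38.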

Additional observations from a re-analysis of the deposited data

Results flagged for a closer look

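The test of the difference between dose effects (high minus low) passed in 43 members for Aucklandiae Radix minus Polygalae Radix. It passed in 47 members for Aucklandiae Radix minus each of Menthae Herba, Saposhnikoviae Radix, Saengmaek-san, Guibi-tang and Soyo-san. Every one of those calls was lower with Aucklandiae Radix. For the 7 members called in opposite directions with Aucklandiae Radix and Polygalae Radix, the difference on the log2 scale, tested with edgeR, was -2.13 for CCNE2, -1.45 for CDT1, -1.23 for CHAF1A, -0.99 for ORC6, -0.75 for DSCC1, -0.64 for E2F1 and -0.60 for MCM10. Each of the 7 rests on 8 libraries, 2 per dose and extract, whose names all begin with the same number.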

How the results depend on the processing

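Of the member changes at high against low dose picked by the rule for genes given by library, none reversed under any alternative run. Other changes were not checked for a reversal. With the outlying library in the fit (57 libraries), the members called fell to 10 for Polygalae Radix, 2 for Menthae Herba and 2 for Guibi-tang at high against low dose, and rose to 18 for Saposhnikoviae Radix, whose low-dose group holds that library. Over all genes that fit called 1459, 899, 797 and 4706, in the same order. Against the vehicle at high dose the same setting gave 14 for Polygalae Radix, 5 for Menthae Herba, 4 for Guibi-tang and 1 each for Saengmaek-san, Saposhnikoviae Radix and Soyo-san. Over all genes this setting called 1875, 1012, 1079, 70, 49 and 149 there, in the same order. Summed over 7 extracts it gave 17 member calls for medium against low dose (4 in the fit reported). For medium against vehicle it gave 4 (84) and for low against vehicle 23 (42). Over all genes, medium against low called 4359 for Saposhnikoviae Radix, whose low-dose group holds the outlying library, and 0 to 86 for each other extract. Low against vehicle called 4773 and 1 to 83 in the same order, and medium against vehicle 11 to 148 per extract. Without a low-count filter the 3 sums of member calls were 7, 54 and 27, and Saengmaek-san against vehicle gave 12. Over all genes the run without that filter called 73 to 950, 859 to 2342 and 1434 to 2961 per extract, in the order of the sums. DESeq2 called 1 member for Saengmaek-san high against low, and 207 of all genes. The cause was not tested. Leaving out 1 library at a time gave 0 to 1 calls for Saengmaek-san high against low (1 without its low replicate 3). Against the vehicle it gave 14 to 22 for Saengmaek-san (14 without vehicle replicate 3), 8 to 12 for Saposhnikoviae Radix (8 without its high replicate 2) and 13 to 20 for Soyo-san (13 without either high replicate). The sums ranged from 2 to 5 for medium against low (2 without Polygalae Radix medium replicate 2), 53 to 85 for medium against vehicle and 10 to 50 for low against vehicle. Each run with a library left out tested only the comparisons that hold its group. Where 1 library was left of a group, it was assumed to vary like the other groups. Shared numbers did not pair libraries: deviations of same-numbered libraries correlated at -0.088 to 0.135. With the title number as a replicate block, Aucklandiae Radix had 47 calls at high against low dose, Polygalae Radix 30, Menthae Herba 26 and Guibi-tang 10. Over all genes that run called 10073, 5164, 4157 and 3191, in the same order. Changes of about 0.1 on the log2 scale are near the smallest called here.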

Other observations

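Okbyeongpung-san, a formula with 1 library per dose, allowed no test. The log2 ratio of high to low dose had a median of 0.06 over the 49 members, with 42 above 0 and none past 2-fold. It ranged from -0.14 for TK1, at 158.8 CPM against 174.8, to 0.32 for ORC1, at 45.7 CPM against 36.7. Against the vehicle mean the high-dose ratios ran from -0.10 for RFC4 to 0.51 for RBL1. CDC6 read 89.9 CPM at low dose, 92.7 at medium dose and 102.8 at high dose. CCNE2 read 12.9, 15.9 and 12.7 CPM at those doses.

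The subunits of ribonucleotide reductase gave a pattern to look at again. RRM1 fell with both Aucklandiae Radix and Polygalae Radix, to 98.8 and 99.4 CPM and to 110 and 111 CPM, whereas RRM2 fell to 107 and 108 CPM with the first and read 293 and 309 CPM with the second. The difference between the extracts' dose effects was -1.50 ± 0.057 for RRM2 on the log2 scale (edgeR, adjusted p = 6.84e-25) and -0.14 ± 0.056 for RRM1 (edgeR, adjusted p = 0.0379).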
